A study of Homo sapiens with 12 samples.

Results

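The 55 genes described here encode the machinery that licenses, fires and copies replication origins. They were chosen by function, with earlier results of these data known. The list holds the 6 subunits of the origin recognition complex and the licensing factors CDC6 and CDT1 with the inhibitor GMNN. It has the 6 subunits of the MCM2-7 helicase, MCM8 and MCM10, and the firing kinase CDC7 with DBF4. Next come the helicase partners CDC45, GINS1 to GINS4 and WDHD1, and the clamp PCNA with its loader RFC1 to RFC5. Subunits of the replicative polymerases alpha, delta and epsilon are on it, without POLD4 and POLE4, which were read with other replication genes below. Replication protein A, 3 Okazaki fragment enzymes and 3 fork protection factors follow. The last are 2 subunits of chromatin assembly factor 1 (CHAF1A and CHAF1B), and RRM1, RRM2 and TK1. All 55 were among the 57353 gene names of the count table, of which 30572 had a count in any library, and all 55 were among the 12998 genes tested.

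RNA was measured in MOLM-13, an established human AML cell line with a FLT3-ITD mutation. Every library came from the unmodified line, labelled WT. Cells received either vehicle (DMSO) or 3 nM quizartinib (AC220), a FLT3 inhibitor, for 15 hr. They were kept in regular RPMI with FBS or in hBMSC-CM, a mixture in equal parts of RPMI and filtered medium conditioned by the HS-5 human bone marrow stromal line, so soluble products of 1 stromal line stood for the marrow stroma. The 4 combinations had 3 replicates each, 12 libraries in all, and the study's checklist calls its replicates biological, without saying whether they were separate cultures, so the p values measure the spread between these libraries.

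Total counts ran from 19966546 to 31546104 per library, and TMM factors from 0.956 to 1.041. Mitochondrial transcripts were 0.683% to 0.79% of counts with vehicle and 1.02% to 1.10% with quizartinib in RPMI, and 0.458% to 0.613% and 0.683% to 0.947% in hBMSC-CM, higher with quizartinib in each medium without overlap. All 9 myeloid markers examined, among them PTPRC, SPI1 and CD33, were detected in every library, and their summed level was 1205 to 1259 CPM with vehicle and 2004 to 2049 CPM with quizartinib in RPMI, and 1443 to 1481 CPM and 2372 to 2498 CPM in hBMSC-CM, higher with quizartinib in each medium. CPM are counts per 1000000 counts of the library, with TMM scaling wherever a single gene or the 55 genes are given. With quizartinib 6 of the 9 myeloid markers rose and 3 fell in RPMI, and 5 rose and 1 fell in hBMSC-CM. CD33, CEBPA and ITGAM fell in RPMI, and CEBPA in hBMSC-CM. Over all genes tested, 40.1% were higher and 39.2% lower in RPMI, and 33.4% and 33.7% in hBMSC-CM. In RPMI, mean PTPRC went from 270 to 535 CPM and FLT3, the drug's target, from 209 to 454 CPM. Of 10 stromal markers, COL3A1, LUM, DCN, POSTN, THY1 and SFRP1 had no count in any of the 12 libraries, where 3 counts would have stood at 0.0951 to 0.15 CPM. The stromal sum was 22.1 to 30.8 CPM in the 6 vehicle libraries, 106 to 126 CPM with quizartinib in RPMI and 72.5 to 84.5 CPM with quizartinib in hBMSC-CM, and it came almost wholly from MMP2 and COL1A1. MMP2 stood at 23.2, 27.9 and 23.9 CPM with vehicle and 97.3, 118 and 111 CPM with quizartinib in RPMI. The part of these shifts in the results below was not tested.

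Before S phase, the origin recognition complex and CDC6 sit on an origin, and CDT1 helps them to load the MCM2-7 ring in an inactive form, a step called licensing. CDC7 with DBF4 and cyclin-dependent kinases then convert the ring, together with CDC45 and GINS, into the active CMG helicase, behind which polymerases, the PCNA clamp and its loader copy the strands. Many genes of this machinery are transcribed in late G1 and S phase through E2F sites near their starts, so their RNA is abundant in proliferating cells and low in resting ones.

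Promoter sequence for these genes, from RefSeq (GRCh38.p14), was available for 48 of the 55. MCM4, MCM5, GINS4, POLD3, RPA2, RPA3 and DNA2 had no entry. Each of the 48 gave 1 sequence, its first entry, though 12 members had more than 1. The comparison with all promoters below used every entry of every gene name, expressed here or not. The words TTTCCCGC, TTTGGCGC, TTTCGCGC and TTTGCGCG, counted as 1 E2F-type motif and searched on both strands, occurred in 21 of the 48 windows of 250 bases before to 50 bases after the start (43.8%, 95% Wilson interval 30.7 to 57.7), against 3.15% of all 35116 windows of that length in the table. In 19 of the 21, a match lay between 60 bases before and 30 bases after the start. With only the 250 bases before the start, the share was 27.1% of members and 2.67% of all promoters. CCAAT occurred in 27 of 48 windows (56.2%, against 34.6% of all), the E-box CACGTG in 8 (16.7%, against 7.26%) and the CHR-type words TTTGAA or TTCGAA in 3 (6.25%, against 16.4%). The E2F-type words can overlap each other, and none of the other words is part of an E2F-type word.

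Stretches before the start of 5 members are shown here, 5′ to 3′ on the strand of each gene, with the E2F-type words in capitals, because E2F-type words stand in front of genes whose RNA moved by very different amounts. In MCM6 each run of capitals is a pair of overlapping words, TTTGGCGC on the gene's strand and TTTCGCGC on the other, from 152 to 141 and from 90 to 79 bases before the start. The other 4 carry TTTCCCGC on the opposite strand, beginning 31, 59, 35 and 12 bases before the start of GINS2, PCNA, CDT1 and ORC3. Starts here are those of RefSeq. In GENCODE v44 the gene spans of GINS2 and ORC3 begin further upstream and take in the stretches shown.
MCM6 (chr2:135876514-135876613, minus strand): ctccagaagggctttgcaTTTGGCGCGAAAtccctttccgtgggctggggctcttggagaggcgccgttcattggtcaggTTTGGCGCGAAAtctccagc
GINS2 (chr16:85688955-85689014, minus strand): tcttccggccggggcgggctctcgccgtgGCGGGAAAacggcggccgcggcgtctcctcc
PCNA (chr20:5126623-5126702, minus strand): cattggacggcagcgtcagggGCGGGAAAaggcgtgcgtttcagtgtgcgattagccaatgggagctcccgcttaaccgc
CDT1 (chr16:88803729-88803788, plus strand): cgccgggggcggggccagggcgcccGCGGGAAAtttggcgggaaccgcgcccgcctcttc
ORC3 (chr6:87590075-87590134, plus strand): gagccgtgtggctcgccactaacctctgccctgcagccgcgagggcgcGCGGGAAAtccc

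With quizartinib in RPMI, GINS2 RNA stood at 10.2% of its vehicle mean, MCM6 at 16.2%, PCNA at 28.3%, CDT1 at 50.9% and ORC3 at 65.2%. The median log2 fold change in RPMI was -1.92 over the 21 members with a match and -1.38 over the 27 without, and in hBMSC-CM -0.90 and -0.82. These medians are descriptions of 2 lists of genes and carry no test. A match does not show that a factor binds there, and no match says only that these letters are not in this window.

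The first comparison asked what 15 hr of FLT3 inhibition did to these transcripts in regular medium. The listed genes fell almost as a block. Of the 55, 54 were lower with quizartinib than with vehicle and 0 were higher, and 44 fell at least 2-fold. Of 32 other replication genes outside the list, 26 were lower and 4, among them POLD4, were higher. The median member was left at 29.8% of its vehicle level. Together the 55 genes made up 0.842% to 0.844% of all counts with vehicle and 0.274% to 0.277% with quizartinib. In bulk RNA, fewer cells in S phase and less of each RNA per cell cannot be told apart. All these levels are relative to the counts of each library, so a change in total RNA per cell would not show.

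Tested with edgeR (quasi-likelihood, Benjamini-Hochberg adjustment over all 12998 genes, adjusted p under 0.05), 39.2% of all genes tested were lower in this comparison and 40.1% were higher. A fall of at least 2-fold was called for 11.8% of all genes. The 3 quizartinib libraries lay below the 3 vehicle libraries for 53 of 55 members and for 40.1% of all genes. The members' median log2 fold change was -1.75 against 0.025 over all genes. At an unadjusted p under 0.05, 0 members were higher, and DESeq2 and limma-voom also called 0 higher and 54 lower. The exception among the 55 was ORC4. Of the 54, ORC2 had an adjusted p of 0.0304, and the other 53 had an adjusted p of at most 7.73e-07.

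**Figure D1:**
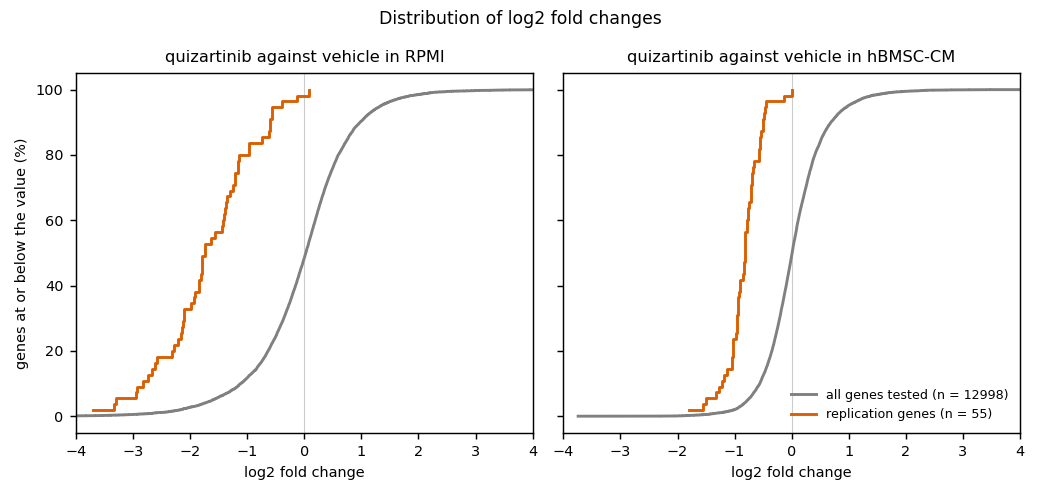
Cumulative distribution of log2 fold changes with quizartinib (x axis) against the share of genes at or below each value in percent (y axis), for the 55 replication genes (orange) and all 12998 genes tested (grey), in RPMI on the left and hBMSC-CM on the right. The orange curve is shifted to negative values in both media, with a median of -1.75 in RPMI and -0.82 in hBMSC-CM, while the grey curve is centred near 0.

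The same inhibition in hBMSC-CM gave the same direction with smaller changes. Here 53 of 55 members were lower and 0 were higher, 13 fell at least 2-fold (2.03% of all genes), and the median member was left at 56.4% of its vehicle level. The set's share of counts was 0.817% to 0.834% with vehicle and 0.484% to 0.486% with quizartinib, above all 3 quizartinib libraries in RPMI and below all 6 vehicle libraries. Over all genes, 33.7% were lower and 33.4% higher, the 3 libraries of each group did not overlap in the lower direction for 34.4% of genes against 53 of 55 members, and the median log2 fold change was 0.009 against -0.82 for members. Of all genes called, 49.8% were higher, against 60% with upper-quartile factors and 62.8% with library size alone. ORC2 and ORC4 were the members not called. DESeq2, limma-voom and an unadjusted p under 0.05 each gave 53 lower and 0 higher.

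**Figure D2:**
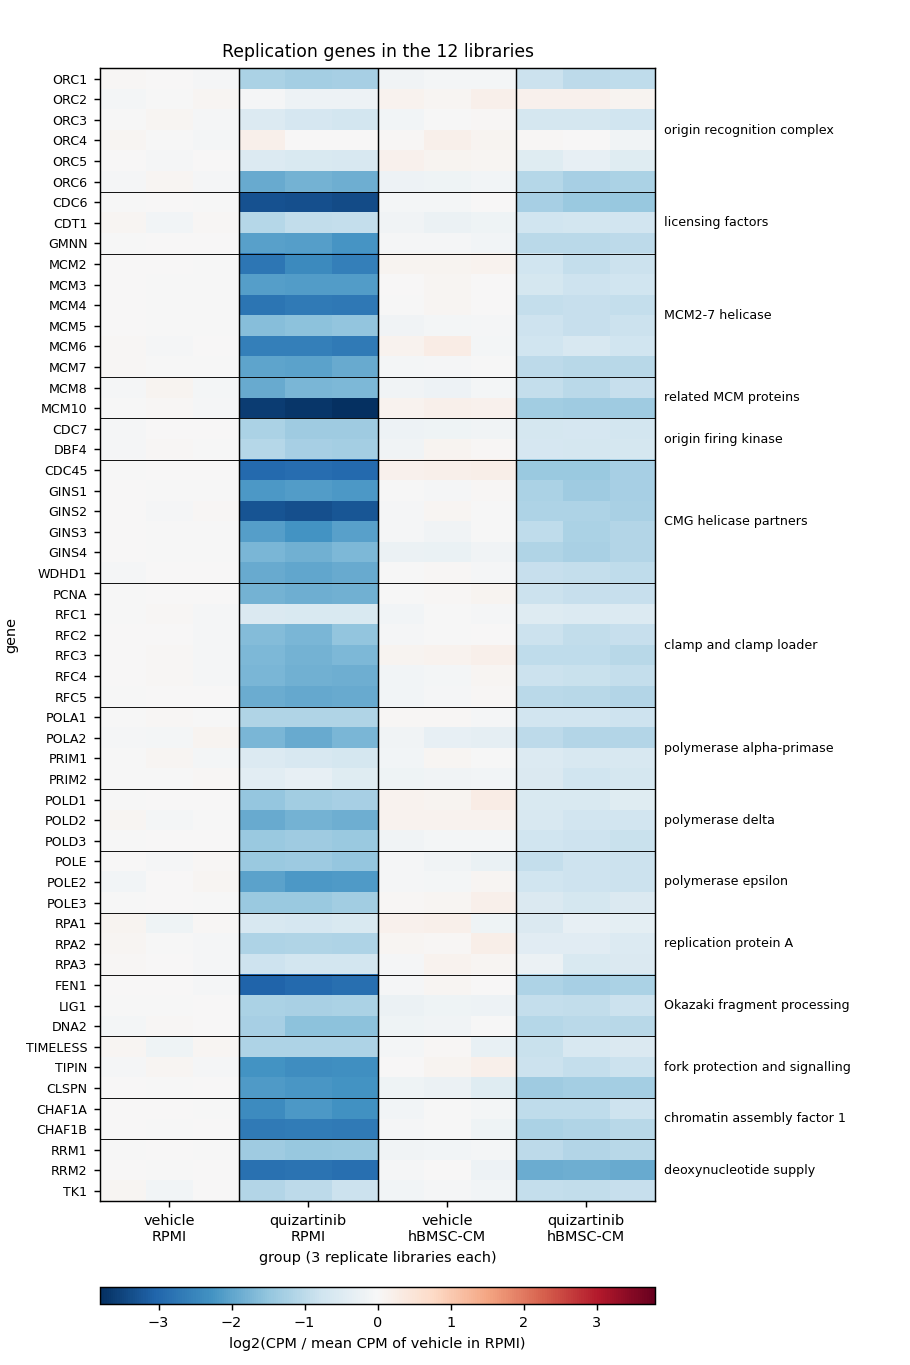
Level of each of the 55 genes (rows, by role) in each of the 12 libraries (columns, 3 per group) as log2 of CPM over the gene's mean CPM with vehicle in RPMI. The columns for quizartinib in RPMI are the darkest blue, down to MCM10 at the foot of the MCM rows, those for quizartinib in hBMSC-CM are a paler blue, and vehicle in hBMSC-CM is close to vehicle in RPMI.

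Set side by side under quizartinib, 49 of 55 members had more RNA in hBMSC-CM than in RPMI and 1, PRIM2, was lower, with a median log2 difference of 0.76. Over all genes 35.5% were higher and 34.3% lower in this comparison, and the hBMSC-CM libraries lay above the RPMI libraries for 50 of 55 members and 36.3% of genes. At an unadjusted p under 0.05 and with limma-voom, 49 members were higher and 1 lower, and DESeq2 called 48 and 1. Whether the response itself differed between media was tested with the interaction term, the log2 fold change in hBMSC-CM minus that in RPMI. It was positive for 45 members and negative for 0 by edgeR's test, where 26.1% of all genes were positive and 19.2% negative. At an unadjusted p under 0.05, 46 members were positive (RPA3 in addition) and 1 negative (ORC4), and DESeq2 and limma-voom both gave 45 and 0.

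Of the 54 members lowered in RPMI, 49 stood higher under quizartinib in hBMSC-CM than in RPMI (90.7%) and 45 had a positive interaction (83.3%). Among all 5096 genes lowered in RPMI those shares were 75.5% and 60.8%. The log2 fold change in hBMSC-CM divided by that in RPMI had a median of 0.499 over these members and 0.493 over all lowered genes. The members' order was similar in both media, with a Pearson r of 0.85 and a Spearman rho of 0.86 between the 2 log2 fold changes over 55 genes, which share the libraries of each group.

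**Figure D3:**
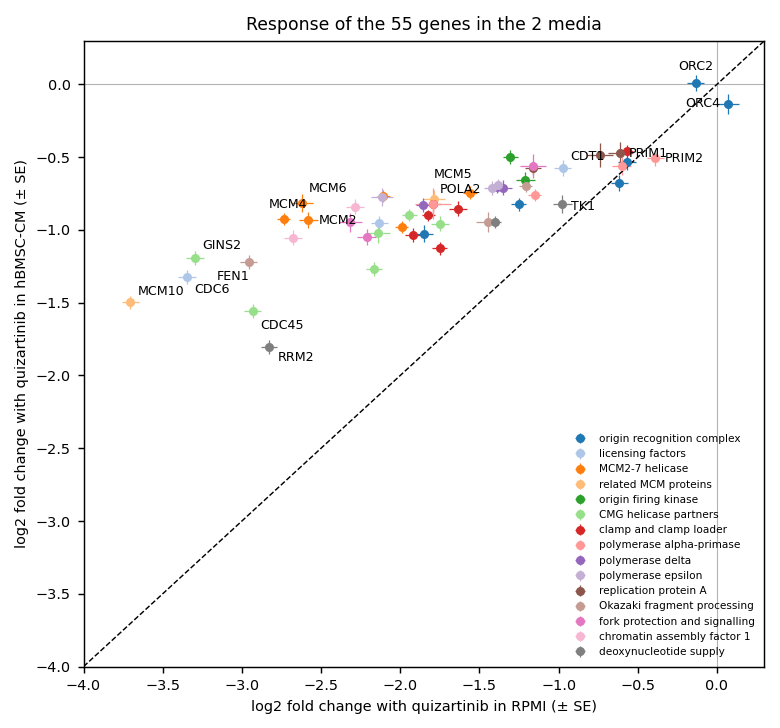
Log2 fold change with quizartinib in RPMI (x axis) against hBMSC-CM (y axis) for the 55 genes, coloured by role, with bars of 1 SE and the dashed line of equal response. MCM10, CDC6 and GINS2 lie farthest to the left and well above the line, RRM2 is the lowest point, and ORC2, ORC4, PRIM2 and PRIM1 lie near the line at the upper right.

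The ring that licensing loads is made of MCM2 to MCM7 in equal numbers. All 6 fell in both media and all 6 had a positive interaction. MCM2 (chr3:127598410-127622436, plus strand) stood at 196, 196 and 190.5 CPM with vehicle and 28.9, 35.9 and 32.4 CPM with quizartinib in RPMI, and 207, 208 and 214 CPM with vehicle and 115, 104 and 110.2 CPM with quizartinib in hBMSC-CM. MCM3 was one of the more abundant members, with 607, 599.7 and 597 CPM with vehicle and 142, 137 and 139 CPM with quizartinib in RPMI, and 605, 628 and 608 CPM with vehicle and 376, 349.7 and 358 CPM with quizartinib in hBMSC-CM. MCM4 stood at 508, 503 and 500.3 CPM with vehicle and 72.98, 77.6 and 76.1 CPM with quizartinib in RPMI, and 503, 526 and 514 CPM with vehicle and 269.8, 274 and 268 CPM with quizartinib in hBMSC-CM. In each of these 3 genes all 3 quizartinib libraries in RPMI were lowest, those in hBMSC-CM were intermediate, and no quizartinib library reached a vehicle library.

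MCM5 changed least of the 6 in RPMI, with 458, 442 and 447 CPM with vehicle and 145, 153 and 159 CPM with quizartinib in RPMI, and 413, 422 and 436 CPM with vehicle and 259.7, 246 and 253 CPM with quizartinib in hBMSC-CM. MCM6 (chr2:135839626-135876443, minus strand), whose promoter stretch is shown above, stood at 280.5, 262 and 276 CPM with vehicle and 44.96, 45.5 and 42.3 CPM with quizartinib in RPMI, and 297, 329 and 261 CPM with vehicle and 161, 181 and 163 CPM with quizartinib in hBMSC-CM. MCM7 stood at 597, 579 and 570.4 CPM with vehicle and 144, 142 and 153 CPM with quizartinib in RPMI, and 554, 568 and 572 CPM with vehicle and 294, 281 and 283 CPM with quizartinib in hBMSC-CM. The same 3-step order, without overlap, held for these subunits, and in MCM6 the vehicle libraries in hBMSC-CM were the most scattered of its 4 groups.

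In RPMI the 6 log2 fold changes were -2.58 ± 0.059 (SE) for MCM2, -2.11 ± 0.042 for MCM3, -2.74 ± 0.042 for MCM4, -1.56 ± 0.044 for MCM5, -2.62 ± 0.07 for MCM6 and -1.99 ± 0.043 for MCM7. In hBMSC-CM they lay in a narrow band, from -0.98 for MCM7 to -0.74 for MCM5, and the 6 subunits were left at 50.6% to 59.7% of vehicle, against 15.0% to 33.9% in RPMI. Adjusted p in edgeR's test was at most 5.43e-18 in RPMI and 4.86e-10 in hBMSC-CM. The largest interactions of the ring were 1.81 ± 0.056 for MCM4 and 1.81 ± 0.093 for MCM6, and the smallest was 0.82 ± 0.061 for MCM5.

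In RPMI the balance of the subunits moved with the drug. The CPM of MCM4 divided by that of MCM5 was 1.11, 1.14 and 1.12 with vehicle in RPMI, 0.504, 0.509 and 0.478 with quizartinib in RPMI, 1.22, 1.24 and 1.18 with vehicle in hBMSC-CM and 1.04, 1.11 and 1.06 with quizartinib in hBMSC-CM. The pair was picked after its values were seen, so the ratio is given without a test. As a sum, the 6 subunits were 29.8% to 30.2% of the members' CPM with vehicle in RPMI, 21.7% to 22.5% with quizartinib in RPMI, 30.4% to 30.7% with vehicle in hBMSC-CM and 30.6% to 31.0% with quizartinib in hBMSC-CM. Per kilobase of transcript the most and the least abundant subunit differed 4.11-fold to 4.25-fold with vehicle in RPMI and 5.52-fold to 6.94-fold with quizartinib, MCM7 being highest and MCM2 lowest in those 6 libraries. In hBMSC-CM this spread did not widen, at 3.72-fold to 3.8-fold with vehicle and 3.64-fold to 3.75-fold with quizartinib, MCM2 again lowest and MCM3 rather than MCM7 highest with quizartinib. For MCM2, 32.4% of the exonic bases are shared with an antisense gene in GENCODE v44, and whether the counting used strand was not given in the sources used here.

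**Figure D4:**
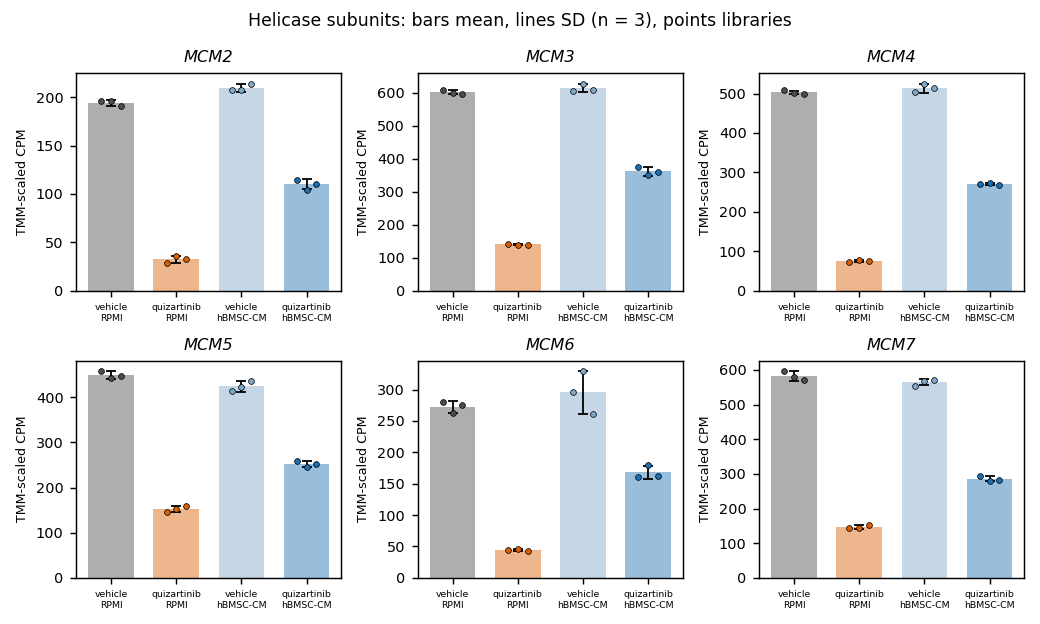
TMM-scaled CPM (y axis, from 0) of MCM2 to MCM7 in the 4 groups (x axis), with bars for the mean, lines for the SD and points for the 3 libraries. In every panel quizartinib in RPMI is lowest and quizartinib in hBMSC-CM lies between it and vehicle, and the RPMI drop is shallowest in MCM5.

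MCM10 and MCM8 share the name but not the ring: MCM10 is needed to activate the assembled CMG helicase, and MCM8 works with MCM9 in homologous recombination. MCM10 (chr10:13161558-13211110, plus strand) stood at 145, 153 and 144 CPM with vehicle and 11.99, 11.4 and 10.3 CPM with quizartinib in RPMI, and 163, 167 and 165 CPM with vehicle and 59.1, 57.99 and 58.2 CPM with quizartinib in hBMSC-CM. The 4 groups did not overlap, and with quizartinib the gene was left at 7.63% of vehicle in RPMI and 35.4% in hBMSC-CM. Its log2 fold change of -3.71 ± 0.053 in RPMI was the largest of the 55 and the 22nd largest fall of all 12998 genes, and its interaction of 2.21 ± 0.069 was the largest of the 55 (edgeR, adjusted p = 1.4e-15). MCM8 stood at 45.8, 49.99 and 44.5 CPM with vehicle and 12.3, 14.1 and 14.4 CPM with quizartinib in RPMI, and 42.3, 40.8 and 44.4 CPM with vehicle and 25.2, 23 and 25.5 CPM with quizartinib in hBMSC-CM. It fell by a log2 of about 1.79 in RPMI and 0.79 in hBMSC-CM, with an interaction of 1.0 ± 0.096, and 33.5% of its exonic bases are shared with another gene.

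The loader CDC6 is an ATPase that works with the origin recognition complex, and CDT1 carries the ring to the origin. Among the licensing factors CDC6 changed far more than CDT1. CDC6 (chr17:40287879-40304657, plus strand) stood at 146, 149.9 and 145 CPM with vehicle and 14.9, 14.4 and 13.97 CPM with quizartinib in RPMI, and 141, 141 and 148 CPM with vehicle and 61.5, 55.7 and 54.03 CPM with quizartinib in hBMSC-CM. CDT1 (chr16:88803789-88809258, plus strand) stood at 105, 92.8 and 104 CPM with vehicle and 47.1, 52.8 and 53.4 CPM with quizartinib in RPMI, and 91.7, 86.4 and 90.3 CPM with vehicle and 59.2, 61.3 and 60.2 CPM with quizartinib in hBMSC-CM. For both genes the quizartinib libraries in hBMSC-CM lay above those in RPMI and below all vehicle libraries, and the log2 difference between the 2 quizartinib groups was 1.98 for CDC6 and 0.24 for CDT1. Log2 fold changes were -3.35 ± 0.055 in RPMI and -1.32 ± 0.047 in hBMSC-CM for CDC6, and -0.97 ± 0.054 and -0.57 ± 0.054 for CDT1. The interaction was 2.02 ± 0.073 for CDC6 (edgeR, adjusted p = 1.22e-14) and 0.40 ± 0.076 for CDT1 (adjusted p = 0.000204).

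GMNN, or geminin, binds CDT1 and blocks relicensing during S and G2 phase. It stood at 69.7, 70.4 and 71.1 CPM with vehicle and 16.7, 16.4 and 14.9 CPM with quizartinib in RPMI, and 67.6, 68.9 and 65.7 CPM with vehicle and 34.6, 34.7 and 35.2 CPM with quizartinib in hBMSC-CM, a fall to 22.7% of vehicle in RPMI and 51.7% in hBMSC-CM. CDT1 fell less than its inhibitor: the CPM of CDT1 divided by that of GMNN was 1.5, 1.32 and 1.46 with vehicle in RPMI and 2.82, 3.22 and 3.58 with quizartinib in RPMI. In hBMSC-CM the ratio was 1.36, 1.25 and 1.37 with vehicle and 1.71, 1.76 and 1.71 with quizartinib. The quizartinib libraries lay above the vehicle libraries in each medium, and the gap was wider in RPMI. This pair too was chosen after its values were seen and has no test.

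The origin recognition complex changed least of all the assemblies that license origins. With quizartinib in RPMI, ORC1, ORC3, ORC5 and ORC6 fell with groups that did not overlap, ORC2 fell by 0.13 on the log2 scale with overlapping groups, and ORC4 was not called. ORC6 (chr16:46689643-46698394, plus strand), the subunit least like the others in sequence, stood at 51.4, 55.2 and 51.3 CPM with vehicle and 14.1, 15.2 and 14.5 CPM with quizartinib in RPMI, and 46.5, 46.8 and 49.1 CPM with vehicle and 24.6, 22.2 and 23.01 CPM with quizartinib in hBMSC-CM. The log2 fold change of ORC6 was -1.85 ± 0.06 in RPMI and -1.02 ± 0.058 in hBMSC-CM, the largest of the complex in each medium, and its interaction was 0.83 ± 0.084 (edgeR, adjusted p = 6.33e-08).

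ORC3, with the E2F-type word 12 bases before its start, stood at 81.4, 87.4 and 80.04 CPM with vehicle and 57.6, 52.9 and 51.6 CPM with quizartinib in RPMI, and 77.4, 82.5 and 84.99 CPM with vehicle and 52.2, 51.97 and 48.6 CPM with quizartinib in hBMSC-CM. ORC5 stood at 36.9, 35.3 and 36.9 CPM with vehicle and 25.3, 24.5 and 23.7 CPM with quizartinib in RPMI, and 40.4, 39.5 and 38.6 CPM with vehicle and 26.6, 29.02 and 26.2 CPM with quizartinib in hBMSC-CM. Both genes lay below vehicle in all quizartinib libraries of both media. The log2 fold change of ORC3 was -0.62 ± 0.053 in RPMI and -0.68 ± 0.054 in hBMSC-CM, and that of ORC5 was -0.57 ± 0.056 and -0.54 ± 0.056. Their interactions of -0.06 ± 0.076 and 0.03 ± 0.079 did not pass the test (edgeR, adjusted p = 0.547 and 0.757), which does not show that the 2 responses were equal.

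ORC4 (chr2:147930396-148021604, minus strand) stood at 26.3, 24.9 and 23.6 CPM with vehicle and 28.4, 25.1 and 25.2 CPM with quizartinib in RPMI, and 25.8, 28.2 and 26.9 CPM with vehicle and 25.9, 24.98 and 22.6 CPM with quizartinib in hBMSC-CM. Its 4 groups overlapped, with log2 fold changes of 0.07 ± 0.068 in RPMI (edgeR, adjusted p = 0.337) and -0.13 ± 0.069 in hBMSC-CM (adjusted p = 0.0985). With upper-quartile scaling the RPMI value was 0.17 and passed the test (adjusted p = 0.0242), and with library size alone it was 0.16 (adjusted p = 0.0342). ORC2 stood at 53.5, 55.7 and 59.7 CPM with vehicle and 55.1, 49.7 and 48.99 CPM with quizartinib in RPMI, and 62.04, 59.3 and 63.8 CPM with vehicle and 62.6, 63.2 and 60.5 CPM with quizartinib in hBMSC-CM. Its fall in RPMI (edgeR, adjusted p = 0.0304) no longer passed the test without vehicle replicate 3 in RPMI (log2 fold change -0.08, adjusted p = 0.208), without quizartinib replicate 2 in RPMI (-0.10, adjusted p = 0.143) or without quizartinib replicate 3 in RPMI (-0.09, adjusted p = 0.153), nor with upper-quartile factors (-0.03, adjusted p = 0.607) or library size alone (-0.04, adjusted p = 0.479).

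ORC1, the subunit whose protein is renewed in each cell cycle in human cells, was left at 42% of vehicle in RPMI and 56.3% in hBMSC-CM, with an interaction of 0.43 ± 0.066. ORC1 and ORC6 were the 2 subunits with a called interaction. Per kilobase of transcript, mean levels with vehicle in RPMI ran from 3.81 CPM per kb for ORC4 and 13.1 for ORC2 to 32.6 for ORC6, 33.2 for ORC3 and 42.5 for ORC1, so the 2 subunits that moved least were also the least abundant on this scale. With quizartinib in RPMI the order changed: ORC6 stood at 9.02 CPM per kb, below ORC2 at 12 and ORC5 at 12.7, with SDs of 0.339, 0.776 and 0.416 over 3 replicates. Not divided by length, mean ORC2 with vehicle in RPMI (56.3 CPM) stood above ORC6 (52.6 CPM) and ORC5 (36.4 CPM).

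**Figure D5:**
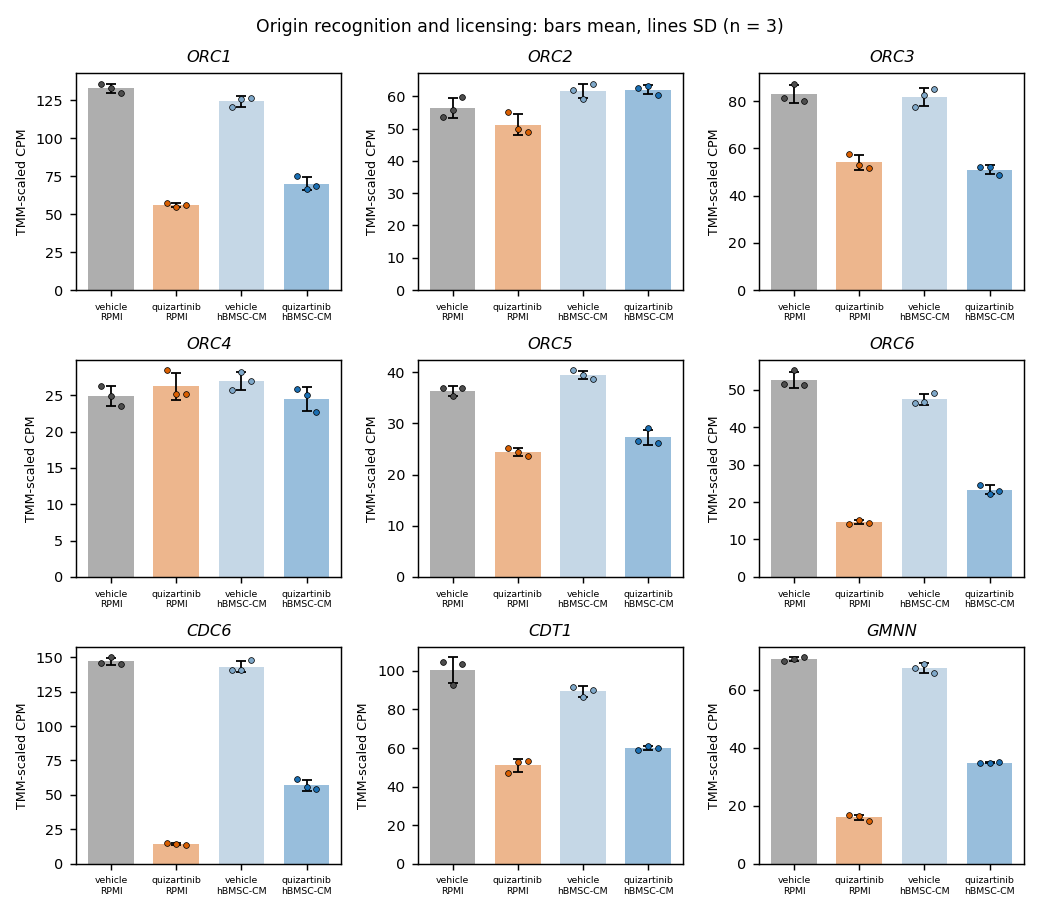
TMM-scaled CPM (y axis, from 0) of ORC1 to ORC6, CDC6, CDT1 and GMNN in the 4 groups (x axis), with bars for the mean, lines for the SD and points for the 3 libraries. ORC2 and ORC4 vary least across the groups, ORC3 and ORC5 drop by similar amounts in both media, and ORC6, CDC6 and GMNN drop most in RPMI.

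CDC7 is the kinase that fires licensed origins and DBF4 is its activating subunit. CDC7 stood at 71.7, 74.4 and 73.8 CPM with vehicle and 31.5, 28.8 and 28.6 CPM with quizartinib in RPMI, and 64.5, 65.8 and 66.7 CPM with vehicle and 46.5, 47.2 and 45.5 CPM with quizartinib in hBMSC-CM. DBF4 stood at 94.3, 101 and 97.2 CPM with vehicle and 45.7, 40.4 and 40.1 CPM with quizartinib in RPMI, and 89.3, 104 and 101 CPM with vehicle and 62.9, 61.6 and 61.4 CPM with quizartinib in hBMSC-CM. Both subunits of the kinase were lowest with quizartinib in RPMI in all 3 libraries, with log2 fold changes of -1.30 ± 0.049 and -1.21 ± 0.058 in RPMI against -0.50 ± 0.048 and -0.66 ± 0.057 in hBMSC-CM. These log2 fold changes were smaller in size than those of all 6 MCM2-7 subunits in the same medium, and both interactions were called, at 0.80 ± 0.068 and 0.55 ± 0.081.

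The partners that turn the ring into a working helicase, CDC45 and the 4 GINS subunits, all fell in both media with a positive interaction, as did WDHD1, which ties the helicase to polymerase alpha. GINS2 (chr16:85676198-85690073, minus strand) had the largest change in RPMI, at 77.8, 76.1 and 79.4 CPM with vehicle and 7.99, 7.68 and 8.11 CPM with quizartinib in RPMI, and 75.7, 81.9 and 76.6 CPM with vehicle and 34.6, 34.6 and 33.3 CPM with quizartinib in hBMSC-CM. It was left at 10.2% of vehicle in RPMI and 43.8% in hBMSC-CM, the vehicle groups overlapping each other and no other group. GINS4 had the smallest in RPMI, at 61.99, 60.2 and 60.2 CPM with vehicle and 18.4, 17.2 and 18.8 CPM with quizartinib in RPMI, and 51.98, 51.3 and 55.1 CPM with vehicle and 27.4, 25.9 and 28.4 CPM with quizartinib in hBMSC-CM. Log2 fold changes were -3.30 ± 0.059 in RPMI and -1.19 ± 0.049 in hBMSC-CM for GINS2, and -1.75 ± 0.056 and -0.96 ± 0.055 for GINS4. The interaction of GINS2, 2.11 ± 0.077, exceeded that of its 3 partners in the complex, which lay between 0.79 for GINS4 and 1.12 for GINS3. For GINS4, 33.4% of exonic bases are shared with antisense genes, and for GINS3 14.4% with 1 antisense gene. In hBMSC-CM, CDC45 (-1.56) and GINS1 (-1.27) fell more than GINS2, and WDHD1 (-0.90) fell less than GINS4.

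CDC45 stood at 108, 109.7 and 109 CPM with vehicle and 14.04, 14.6 and 14.1 CPM with quizartinib in RPMI. In hBMSC-CM it was left at 34% of vehicle, with a log2 fold change of -1.56 ± 0.046, after RRM2 the largest fall of the 55 in that medium. The other members of this assembly, GINS1, GINS3 and WDHD1, were left at 22.3% to 26.0% of vehicle in RPMI and 41.5% to 53.7% in hBMSC-CM.

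PCNA, the sliding clamp, and the loader subunits RFC2 to RFC5 changed by similar amounts, while RFC1, the large loader subunit, changed less. RFC5 stood at 93.4, 96.6 and 95.2 CPM with vehicle and 25.7, 24.7 and 24.96 CPM with quizartinib in RPMI, and 89.2, 92.1 and 98.1 CPM with vehicle and 46.4, 45.8 and 44.01 CPM with quizartinib in hBMSC-CM. RFC1 stood at 223, 234 and 216 CPM with vehicle and 152, 151 and 150 CPM with quizartinib in RPMI, and 209, 224 and 215 CPM with vehicle and 159.9, 157 and 155 CPM with quizartinib in hBMSC-CM. Quizartinib libraries were below vehicle libraries in both media for both genes, but RFC1 was left at 67.5% in RPMI and 72.9% in hBMSC-CM where RFC5 was left at 26.4% and 48.8%. The log2 fold changes of RFC1 were -0.57 ± 0.041 and -0.46 ± 0.041, and its interaction of 0.11 ± 0.058 was not called (edgeR, adjusted p = 0.122). PCNA, RFC2, RFC3 and RFC4 had log2 fold changes from -1.82 to -1.64 in RPMI and from -1.13 to -0.82 in hBMSC-CM, with interactions of 0.62 to 0.97, all called.

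Polymerase alpha-primase, which lays the RNA-DNA primers, was split. The polymerase subunits POLA1 and POLA2 had positive interactions and the primase subunits PRIM1 and PRIM2 did not. POLA2, the accessory subunit, stood at 9.03, 8.88 and 10.1 CPM with vehicle and 2.79, 2.503 and 2.78 CPM with quizartinib in RPMI, and 8.57, 7.61 and 7.403 CPM with vehicle and 4.73, 4.35 and 4.31 CPM with quizartinib in hBMSC-CM. It had the fewest reads of the 55 in each group, and 55.8% of the exonic bases of POLA2 are shared with another gene on the same strand. PRIM2 (chr6:57314805-57646850, plus strand), the large primase subunit, stood at 70.4, 71.4 and 73.5 CPM with vehicle and 54.5, 57.3 and 52.2 CPM with quizartinib in RPMI, and 63.5, 65.2 and 66.7 CPM with vehicle and 49.5, 42.9 and 44.9 CPM with quizartinib in hBMSC-CM.

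PRIM2 was the member lower in hBMSC-CM than in RPMI under quizartinib, by -0.26 ± 0.054 on the log2 scale (edgeR, adjusted p = 0.000286), and it was also lower there with vehicle, by -0.14 ± 0.052 (adjusted p = 0.0452). The call with vehicle was lost with no filter (adjusted p = 0.104), with DESeq2 (0.0672), with the replicate block (0.0659) and when any vehicle library but replicate 3 in hBMSC-CM was left out (adjusted p from 0.0765 to 0.163). Its log2 fold changes with quizartinib were -0.39 ± 0.052 in RPMI and -0.51 ± 0.054 in hBMSC-CM, the interaction being -0.12 ± 0.075 (adjusted p = 0.221). PRIM1, the catalytic primase subunit, stood at 48.8, 51.6 and 46.4 CPM with vehicle and 33.8, 32.1 and 30.8 CPM with quizartinib in RPMI, and 45.5, 51.4 and 48.02 CPM with vehicle and 34.2, 31.8 and 31.8 CPM with quizartinib in hBMSC-CM. It fell in both media, by -0.60 ± 0.06 and -0.56 ± 0.06 on the log2 scale, with an interaction of 0.04 ± 0.085 (adjusted p = 0.736). POLA1, the catalytic polymerase subunit, lay between, with -1.15 ± 0.041 and -0.76 ± 0.041 and an interaction of 0.39 ± 0.058. PRIM2 has a named pseudogene, PRIM2BP, and 37.5% of the exonic bases of PRIM1 are shared with other genes. Reads of either gene may therefore have been lost or counted elsewhere. In all, 12 of the 55 members have a named pseudogene: PRIM2, ORC1, DBF4, PCNA, RFC3, RFC5, POLD2, RPA2, RPA3, FEN1, TIPIN and RRM2.

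Of the polymerases that extend the primers, all 6 subunits on the list fell in both media. POLD2, the accessory subunit that bridges polymerase delta, stood at 184, 166 and 171 CPM with vehicle and 46.1, 49.6 and 48.5 CPM with quizartinib in RPMI, and 190, 192 and 191 CPM with vehicle and 114, 105 and 104 CPM with quizartinib in hBMSC-CM. POLD1, its catalytic subunit, stood at 150.3, 152 and 154 CPM with vehicle and 55.01, 61.04 and 63.3 CPM with quizartinib in RPMI, and 166, 165 and 184 CPM with vehicle and 103, 102 and 111 CPM with quizartinib in hBMSC-CM. Every quizartinib library lay below every vehicle library in both genes, and the hBMSC-CM quizartinib libraries above the RPMI ones. Log2 fold changes in RPMI were -1.85 ± 0.049 for POLD2, -1.35 ± 0.055 for POLD1 and -1.39 ± 0.044 for POLD3, and in hBMSC-CM -0.83, -0.71 and -0.71. For POLD1, 12.4% of exonic bases are shared with another gene on the same strand.

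In polymerase epsilon, which copies the leading strand, POLE2 moved most and stood at 37.8, 41.4 and 42.4 CPM with vehicle and 9.93, 9.003 and 9.08 CPM with quizartinib in RPMI, and 39.5, 38.6 and 42.99 CPM with vehicle and 24.1, 23.5 and 23.1 CPM with quizartinib in hBMSC-CM. POLE3, a histone-fold subunit that also serves in chromatin remodelling, moved least, with 204, 209 and 205 CPM with vehicle and 78.1, 77.4 and 81.8 CPM with quizartinib in RPMI, and 213, 217 and 236 CPM with vehicle and 142, 130 and 139.7 CPM with quizartinib in hBMSC-CM. In both genes the order of the groups was that of the helicase, without overlap between quizartinib and vehicle. POLE2 was left at 23% of vehicle in RPMI and 58.3% in hBMSC-CM, and POLE3 at 38.4% and 61.7%. The catalytic POLE itself was left at 37.3% and 61.1%.

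The 3 subunits of replication protein A, which coats single-stranded DNA at forks and in repair, were left at 44.7% to 65.5% of vehicle in RPMI. RPA2 stood at 155, 146 and 144 CPM with vehicle and 65.4, 67.8 and 65.8 CPM with quizartinib in RPMI, and 156, 154 and 174 CPM with vehicle and 111, 110.2 and 103 CPM with quizartinib in hBMSC-CM. RPA1, the large subunit, stood at 158, 132 and 152 CPM with vehicle and 96.6, 94.97 and 97.5 CPM with quizartinib in RPMI, and 166, 167 and 131 CPM with vehicle and 101, 119 and 115 CPM with quizartinib in hBMSC-CM. RPA1 varied more between replicates than most members, and quizartinib libraries were still below all vehicle libraries of the same medium. Log2 fold changes were -1.16 ± 0.051 and -0.58 ± 0.05 for RPA2, the subunit with a called interaction (0.58 ± 0.071), and -0.61 ± 0.079 and -0.47 ± 0.078 for RPA1, whose interaction of 0.14 ± 0.11 was not called (edgeR, adjusted p = 0.327). RPA3 stood between, with an interaction of 0.25 ± 0.12 (adjusted p = 0.0787), which passed without quizartinib replicate 2 in hBMSC-CM (0.32, adjusted p = 0.0307) and without replicate 3 of that group (0.31, adjusted p = 0.0432).

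Okazaki fragments are finished by flap removal and ligation, and the 3 enzymes on the list fell in both media. FEN1, the flap endonuclease, stood at 217, 217 and 206 CPM with vehicle and 25.99, 27.4 and 29.2 CPM with quizartinib in RPMI, and 205, 223 and 217 CPM with vehicle and 95.6, 88.2 and 92.98 CPM with quizartinib in hBMSC-CM. LIG1, the ligase that seals the nick, stood at 197, 201 and 205 CPM with vehicle and 87.7, 85.1 and 88.1 CPM with quizartinib in RPMI, and 173, 179 and 174 CPM with vehicle and 107, 104 and 114 CPM with quizartinib in hBMSC-CM. FEN1 was left at 12.9% of vehicle in RPMI and LIG1 at 43.3%, and in hBMSC-CM at 42.9% and 61.7%. Their interactions were 1.74 ± 0.071 and 0.51 ± 0.059 (edgeR, adjusted p = 5.24e-14 and 3.74e-07). DNA2, a nuclease and helicase for long flaps, was left at 36.6% and 51.8%, with an interaction of 0.50 ± 0.1. The differences between these enzymes were not tested.

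TIMELESS and TIPIN form the complex that steadies the fork, and CLSPN is the adaptor through which ATR activates the checkpoint kinase CHK1. TIPIN stood at 36.1, 38.96 and 35.8 CPM with vehicle and 7.72, 7.196 and 7.38 CPM with quizartinib in RPMI, and 37.4, 39.5 and 42.3 CPM with vehicle and 20.9, 19.6 and 21.1 CPM with quizartinib in hBMSC-CM. TIMELESS stood at 159.5, 133 and 158 CPM with vehicle and 66.6, 67.02 and 67.2 CPM with quizartinib in RPMI, and 142, 154 and 123 CPM with vehicle and 82.6, 99.2 and 103 CPM with quizartinib in hBMSC-CM. The partners did not move together in RPMI, where TIPIN was left at 20.1% of vehicle and TIMELESS at 44.6%, with log2 fold changes of -2.31 ± 0.072 and -1.16 ± 0.082. In hBMSC-CM they were left at 51.7% and 67.9%, and their interactions were 1.37 ± 0.097 and 0.60 ± 0.11. CLSPN fell to 21.6% in RPMI and 48.5% in hBMSC-CM.

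Chromatin assembly factor 1 deposits histones H3 and H4 behind the fork, and both subunits examined fell strongly. CHAF1B stood at 82.9, 81.1 and 83.1 CPM with vehicle and 12.7, 13.2 and 12.7 CPM with quizartinib in RPMI, and 79.7, 80.8 and 73.6 CPM with vehicle and 36.1, 36.96 and 39.9 CPM with quizartinib in hBMSC-CM. CHAF1A stood at 149.9, 149.8 and 147 CPM with vehicle and 28.2, 33.1 and 30.3 CPM with quizartinib in RPMI, and 139.8, 146 and 142 CPM with vehicle and 76.98, 76.4 and 85.6 CPM with quizartinib in hBMSC-CM. The 4 groups kept the order seen for the helicase. Log2 fold changes were -2.68 ± 0.058 and -2.29 ± 0.056 in RPMI and -1.05 ± 0.051 and -0.84 ± 0.051 in hBMSC-CM, with interactions of 1.62 ± 0.077 and 1.44 ± 0.075 (edgeR, adjusted p = 5.89e-13 and 2.17e-12).

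Ribonucleotide reductase makes the deoxynucleotides that forks consume, and its small subunit RRM2 is the one whose level peaks in S phase. RRM2 (chr2:10120698-10211725, plus strand) stood at 486, 473 and 482 CPM with vehicle and 67.2, 69.3 and 65.9 CPM with quizartinib in RPMI, and 464, 482 and 422 CPM with vehicle and 129, 134 and 129 CPM with quizartinib in hBMSC-CM. Its 3 quizartinib libraries in hBMSC-CM lay above those in RPMI but far below any vehicle library, and the log2 fold change of -1.80 ± 0.048 in hBMSC-CM was the largest of the 55 in that medium. In RPMI it was -2.83 ± 0.05. The large subunit RRM1 was left at 37.8% of vehicle in RPMI and 51.8% in hBMSC-CM, where RRM2 was left at 14% and 28.6%. The CPM of RRM2 divided by that of RRM1 was 1.54 to 1.62 with vehicle in RPMI, 0.570 to 0.627 with quizartinib in RPMI, 1.46 to 1.71 with vehicle in hBMSC-CM and 0.846 to 0.954 with quizartinib in hBMSC-CM, a ratio chosen after its values were seen and given without a test.

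TK1, the thymidine salvage kinase, stood at 119.5, 106 and 114 CPM with vehicle and 52.1, 56.6 and 64.8 CPM with quizartinib in RPMI, and 105, 110.1 and 106 CPM with vehicle and 60.3, 58.7 and 62.3 CPM with quizartinib in hBMSC-CM. All 6 quizartinib libraries lay below all 6 vehicle libraries, and the 2 quizartinib groups overlapped. Its log2 fold changes were -0.98 ± 0.061 in RPMI and -0.82 ± 0.061 in hBMSC-CM, with an interaction of 0.15 ± 0.086 (edgeR, adjusted p = 0.157). Without quizartinib replicate 3 in RPMI the interaction was 0.22 and passed (adjusted p = 0.0217).

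By assembly, the median member was left lowest in RPMI in chromatin assembly factor 1 (18.1% of vehicle, 2 genes), the MCM8 and MCM10 pair (18.3%), the MCM2-7 ring (19.9%), fork protection (21.6%) and the CMG partners (22.6%). It was left highest in the origin recognition complex (66.2%, 6 genes), replication protein A (60.1%) and polymerase alpha-primase (55.5%). In hBMSC-CM the same medians lay between 46.5% for the CMG partners and 70.7% for replication protein A. The 10 members without a called interaction were ORC2, ORC3, ORC4, ORC5, RFC1, PRIM1, PRIM2, RPA1, RPA3 and TK1. Except for TK1 these are subunits of the origin recognition complex, the clamp loader, primase and replication protein A.

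With vehicle, log2 differences between media ran from -0.27 to 0.19 over the 55 genes. In this comparison 7 of 55 members were lower in hBMSC-CM than in RPMI and 5 were higher, and 43 were not called, against 15.5% lower and 16.6% higher among all genes. At an unadjusted p under 0.05, 13 were lower and 10 higher, DESeq2 called 5 and 5, and limma-voom called 8 and 5. The median log2 difference was -0.025. The lower members were CLSPN (-0.27 ± 0.054), GINS4 (-0.20 ± 0.051), LIG1 (-0.19 ± 0.041), CDT1 (-0.17 ± 0.052), CDC7 (-0.16 ± 0.046), ORC6 (-0.15 ± 0.053) and PRIM2 (-0.14 ± 0.052). The higher members were CDC45 (0.19 ± 0.043), POLD1 (0.17 ± 0.052), MCM10 (0.16 ± 0.041), RFC3 (0.14 ± 0.044) and POLD2 (0.14 ± 0.045). Adjusted p in edgeR's test ran from 0.000665 for CLSPN to 0.0452 for PRIM2, and none of the 12 differed by as much as 1.5-fold. The count of lower members was 4 without vehicle replicate 1 in RPMI, 3 without vehicle replicate 3 in RPMI and 4 without vehicle replicate 2 in hBMSC-CM, and 14 with upper-quartile factors.

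Other genes of the same pathways, outside the 55, were read from 3 further lists. Of 32 other replication genes, 26 were lower with quizartinib in RPMI, 4 were higher and 2 were not called, with a median log2 fold change of -1.07. Among all genes tested, 39.2% were lower and 40.1% higher. The 3 largest falls were TONSL (-2.35 ± 0.051), a reader of new histones, RECQL4 (-2.07 ± 0.051), a helicase that acts in firing, and DSCC1 (-2.0 ± 0.062), part of an alternative clamp loader. The largest rises were POLD4 (1.57 ± 0.11), the smallest polymerase delta subunit, CTC1 (0.40 ± 0.068), of the telomeric CST complex, and RNASEH2B (0.34 ± 0.041). POLD4 thus rose where POLD1, POLD2 and POLD3 fell, and it stood at 4.75, 4.66 and 4.84 CPM with vehicle and 12.9, 14.5 and 14.8 CPM with quizartinib in RPMI, and 3.27, 3.15 and 3.701 CPM with vehicle and 5.61, 5.93 and 7.64 CPM with quizartinib in hBMSC-CM. In hBMSC-CM 25 of the 32 were lower and 1 was higher, against 33.7% and 33.4% of all genes. The interaction was positive for 20 and negative for 4, against 26.1% and 19.2% of all genes.

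Of 11 other deoxynucleotide genes, 7 were lower with quizartinib in RPMI and 2 were higher, against 39.2% and 40.1% of all genes. NME1 (-2.85 ± 0.068), a nucleoside diphosphate kinase, TYMS (-1.53 ± 0.12), thymidylate synthase, and DTYMK (-1.21 ± 0.054), thymidylate kinase, fell most. NME1 is close in sequence to its neighbour NME2, so its reads may have been lost or counted elsewhere. The 2 that rose were SAMHD1 (0.92 ± 0.043), which degrades deoxynucleotides, and RRM2B (0.31 ± 0.048), the small reductase subunit used outside S phase. In hBMSC-CM 7 were lower and 3 were higher, against 33.7% and 33.4% of all genes. The interaction was positive for 8 and negative for 0, against 26.1% and 19.2% of all genes. SAMHD1 stood at 45.5, 46.5 and 46.9 CPM with vehicle and 90.4, 86 and 86.7 CPM with quizartinib in RPMI, and 64.4, 66.6 and 64.4 CPM with vehicle and 159.5, 152 and 152 CPM with quizartinib in hBMSC-CM, so with quizartinib it had more RNA in hBMSC-CM, and RRM2B was lower (-0.23 ± 0.048).

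Of 26 genes of E2F and G1/S control, 23 were lower with quizartinib in RPMI, 2 were higher and RB1 was not called (0.05 ± 0.042). Among all genes tested, 39.2% were lower and 40.1% higher. The largest falls were those of CCNE2 (-3.82 ± 0.072) and CCNE1 (-3.65 ± 0.099), the E cyclins, and CDC25A (-3.59 ± 0.066), the phosphatase that activates CDK2, which were of similar size to that of MCM10. The rises were in TFDP2 (0.49 ± 0.088), a dimer partner of E2F, and RBL2 (0.46 ± 0.049), a pocket protein of resting cells. In hBMSC-CM 23 were lower and 2 were higher, against 33.7% and 33.4% of all genes. The interaction was positive for 19 and negative for 1, against 26.1% and 19.2% of all genes. The activator E2F1 stood at 58.7, 58.6 and 57.5 CPM with vehicle and 8.38, 8.17 and 7.08 CPM with quizartinib in RPMI, and 48.4, 48.9 and 48.8 CPM with vehicle and 26.1, 23.1 and 26.1 CPM with quizartinib in hBMSC-CM, in the same order of groups as CDC6.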

How the data were processed

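Poly-A-selected, paired-end RNA-seq of 12 MOLM-13 libraries was used. The authors trimmed adapters, aligned reads to the human genome and counted genes with STAR 2.6.0a (hg38 per the submitters' processing notes), and summed identifiers of the same gene name; the strand setting was not given in the sources used here. The deposited values are raw counts per gene name, not normalized. Genes with a mean count and a mean CPM of at least 1 were kept, as in the study. Counts were scaled by TMM and fitted to 4 group means with edgeR (version 4.0.16) quasi-likelihood tests, two-sided, with 8 residual degrees of freedom, Benjamini-Hochberg adjustment over all genes and a threshold of 0.05 (R 4.3.3). SEs are the log2 fold change over the root of the test's F. limma 3.58.1 (voom) and DESeq2 1.42.0 were alternatives. The fit was tested on simulated data. No replicate pair agreed within sampling noise. Intervals and floors cover counting error only.

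Promoter words were searched in the first RefSeq entry of each member and, for all promoters, in every entry. Gene spans, exon overlaps and transcript lengths (canonical transcripts) came from GENCODE v44 on GRCh38. Members and lists were chosen with earlier results of these data known. Per-library values are given for MCM2 to MCM7, for the largest and smallest RPMI change in each other role group, for the 5 largest and 5 smallest interactions and for members not lower in RPMI; other members and E2F1, MMP2 and SAMHD1 named with values were picked after these were seen.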

Additional observations from a re-analysis of the deposited data

Results flagged for a closer look

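The response to quizartinib differed between hBMSC-CM and RPMI by the interaction test (edgeR, Benjamini-Hochberg adjusted p under 0.05) for 45 members with a positive and 0 with a negative value. Over all genes tested, 26.1% were positive and 19.2% negative, and among all genes lowered in RPMI 60.8% were positive. No explanation was weighed. In the licensing groups the log2 interaction was 0.43 for ORC1, 0.83 for ORC6, 2.02 for CDC6, 0.40 for CDT1 and 1.18 for GMNN. In the ring it was 1.65 for MCM2, 1.34 for MCM3, 1.81 for MCM4, 0.82 for MCM5, 1.81 for MCM6 and 1.01 for MCM7, with 1.0 for MCM8 and 2.21 for MCM10. For firing and helicase assembly it was 0.80 for CDC7, 0.55 for DBF4, 1.37 for CDC45, 0.90 for GINS1, 2.11 for GINS2, 1.12 for GINS3, 0.79 for GINS4 and 1.05 for WDHD1. The clamp and its loader gave 0.92 for PCNA, 0.78 for RFC2, 0.62 for RFC3, 0.97 for RFC4 and 0.89 for RFC5.

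Among polymerases the interaction was 0.39 for POLA1, 0.97 for POLA2, 0.64 for POLD1, 1.02 for POLD2, 0.68 for POLD3, 0.71 for POLE, 1.34 for POLE2 and 0.69 for POLE3. RPA2 gave 0.58, FEN1 1.74, LIG1 0.51 and DNA2 0.50. The fork and chromatin factors gave 0.60 for TIMELESS, 1.37 for TIPIN, 1.16 for CLSPN, 1.44 for CHAF1A and 1.62 for CHAF1B, and the reductase 0.46 for RRM1 and 1.03 for RRM2.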

How the results depend on the processing

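Counts of members lower with quizartinib (54 in RPMI, 53 in hBMSC-CM), higher in hBMSC-CM under quizartinib (49) and with a positive interaction (45) stayed within 1.5 times under every alternative run. ORC4 made 1 member higher in RPMI with upper-quartile factors and 1 with library size alone. Members lower in hBMSC-CM under quizartinib numbered 2 with upper-quartile factors and 0 at a fold of at least 1.5. With vehicle, lower members numbered 14 with upper-quartile factors, 12 with library size alone, 4 with no filter, 3 at an adjusted p under 0.01, 0 at a fold of 1.5 and 3 to 7 leaving out 1 library, and higher members 3 with upper-quartile factors, 2 at an adjusted p under 0.01 and 0 at a fold of 1.5. The E2F-type share was 27.1% with only the bases before the start and, with a wording chosen after the data were seen (TTTSSCGC), 39.6%. The causes were not tested.

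Upper-quartile factors shifted all genes by a median of 0.102 in RPMI and library size alone by 0.104 in hBMSC-CM, against which the members' medians of -1.65 and -0.72 stand. With no filter the shift in RPMI was -0.103, and of all genes with a called interaction 70.6% rather than 57.6% were positive. Under quizartinib the higher level of ORC5 in hBMSC-CM lost its call without replicate 2 or 3 in RPMI (0.15 and 0.12) or replicate 2 in hBMSC-CM (0.12), and that of RPA1 without replicate 1 or 2 in RPMI (0.20 and 0.19) or 2 or 3 in hBMSC-CM (0.17 and 0.20). ORC5 also lost it with DESeq2 (adjusted p = 0.0519) and, in edgeR's test, with upper-quartile factors (adjusted p = 0.102). RPA1 lost it with upper-quartile factors in edgeR's test (adjusted p = 0.0662). Of the single members' values under alternatives, 4308 kept their side of the threshold, 46 lost their call and 41 gained one. A change of sign with a call in either fit occurred in 0. Changes of sign without a call were not counted, as for ORC4 in RPMI with no filter (-0.03).

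The 18 correlations of same-numbered deviations ran from -0.227 to 0.098. Libraries with different numbers were not compared in this way, so these values do not show whether the numbers pair the libraries. A fit with the replicate block gave 54 lower in RPMI, 53 lower in hBMSC-CM and 45 positive interactions, and lost the calls of ORC6 and PRIM2 between media with vehicle. Depth limits POLA2 most, at 2.5 to 10.1 CPM.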
